A study of Rattus norvegicus with 48 samples.

Results

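Rat lungs were profiled by RNA sequencing 1 day after a single inhalation of oil vapor, and set against lungs of rats that breathed filtered air on the same schedule. The comparison held 12 of the 48 libraries of the series, chosen by their labels in the table of the single exposure. The 6 oil vapor animals (numbers 5, 6, 7, 13, 14 and 16) breathed oil vapor particles at 300 ppm for 6 h on 1 day, and the 6 air animals (numbers 1, 2, 3, 4, 9 and 10) breathed filtered air. All were male Sprague-Dawley rats, housed in pairs and exposed in a whole-body chamber, and which animals shared a cage is not given in the sources used here. Each library was made from total RNA of a piece of whole lung from 1 animal, after removal of ribosomal RNA. Such a piece mixes alveoli, airways, vessels and blood. The other groups used below, also of 6 animals each, were lungs taken 28 days after the single exposure and lungs taken 1 day after 16 exposures (4 days per week for 4 weeks), with oil vapor and air animals in each.

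Inhaled particles and vapors first meet the airway lining. There, ciliated cells beat to move mucus upward, club cells secrete protective proteins and metabolize foreign chemicals, and goblet and gland cells make mucins. Deeper in the lung, type 1 cells form the gas-exchange surface and type 2 cells make surfactant. Cells that sense oxidants or hydrocarbons can switch on genes of the NRF2 and aryl hydrocarbon receptor pathways, which encode detoxifying enzymes.

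Levels are given as CPM, counts per M (mega) counts of a library scaled by TMM, with the lowest, the median and the highest of 6 animals. CPM is not adjusted for gene length, so it compares animals and not genes. Changes are log2 fold changes of oil vapor over air with their standard error (SE), tested with edgeR's quasi-likelihood test and adjusted over all 14820 genes tested. Library totals were 4.01 to 7.16 M (mega) counts in oil vapor and 4.52 to 5.56 M in air. The means, 5.44 ± 1.34 M and 4.96 ± 0.401 M (SD, n = 6 each), differed by 0.488 M (exact permutation p = 0.407, two-sided, smallest possible 0.00216). A count of 3, the floor allowed by a count of 0, was worth 0.415 to 0.741 CPM. Markers of lung were high in every library: the surfactant gene Sftpc lay between 5178 and 6430 CPM in oil vapor and between 5406 and 5774 CPM in air. Its fellow Sftpb and the type 1 cell receptor Ager also overlapped between the groups.

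Some libraries stood apart. Oil vapor animal 5 held 15317 CPM of erythroid transcripts, summed over the list, against 2502 to 5225 CPM in the other oil vapor animals and 3034 to 6684 CPM in air. It also had the highest sums of platelet, neutrophil, T cell and interferon response genes, and its median correlation with the other 11 libraries, 0.969, was below theirs (0.979 to 0.983, log2 CPM). Oil vapor animals 5, 7 and 16 held 573 to 785 CPM of liver transcripts, against 220 to 272 CPM in the other oil vapor animals and 208 to 275 CPM in air. Heart muscle transcripts summed to 134 to 567 CPM in oil vapor and 101 to 1154 CPM in air. The part of these transcripts in the results below was not tested, beyond the values given without these libraries or with their levels in the model. The plot of summed list levels shows every animal.

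**Figure D1:**
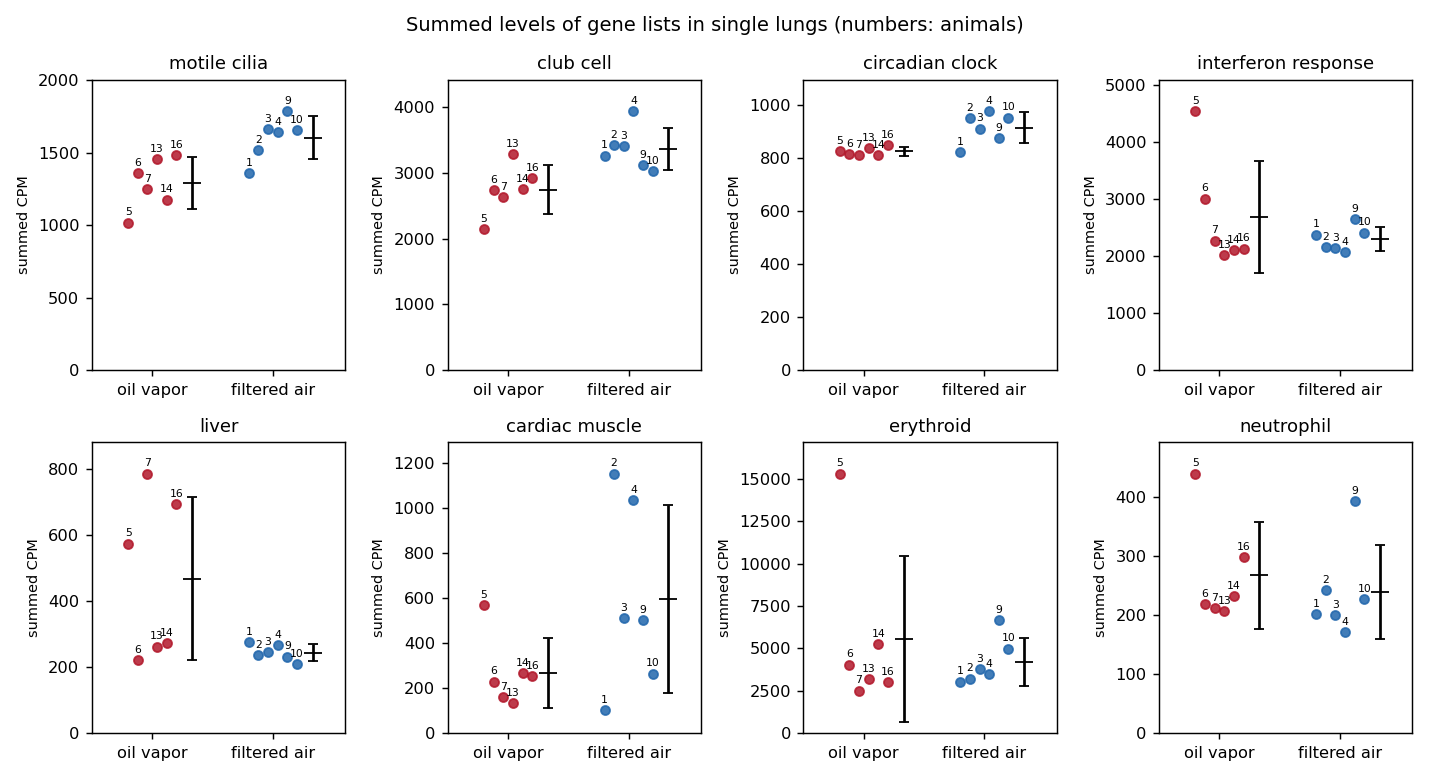
Summed CPM (y axis) of 8 gene lists in each lung, oil vapor left and filtered air right. Each point is an animal with its number, and the bar is the mean with its SD (n = 6). Animal 5 stands apart in erythroid (15317 CPM) and interferon transcripts, animals 5, 7 and 16 in liver transcripts, and the motile cilia sum of 3 oil vapor animals lies below that of every air animal.

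No gene passed the test between oil vapor and air lungs (0%, smallest adjusted p = 0.124). At an unadjusted p below 0.05 there were 1494 genes (10.1% of those tested, where 5% would be 741), 687 higher in oil vapor (4.64%) and 807 lower (5.45%). The median log2 value of all genes was 0.01, and 46.7% of genes had a value below 0 and 53.3% above 0. The 2 groups did not overlap for 98 genes (0.661%), of which oil vapor was the lower in 64 (0.432%) and the higher in 34 (0.229%). With DESeq2 19 genes passed, 6 higher and 13 lower, of which 9 had groups that did not overlap, and with limma-voom 1 passed. Values below therefore describe these animals, and single genes are named as values that did not pass. The share of a list at an unadjusted p below 0.05 is to be read beside the 10.1% of all genes.

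Genes of motile cilia had lower values in oil vapor lungs in nearly every member. Of 38 members tested, from a list of 43, 37 lay below 0, with a median log2 value of -0.47 beside 0.01 over all genes. An unadjusted p below 0.05 was reached by 23 members (60.5%), all lower, and the smallest adjusted p was 0.198. In every oil vapor animal at least 31 of the 38 members lay below the air median, while in air animals 2 to 15 lay below the oil vapor median, with the 15 in air animal 1. In a piece of lung, fewer ciliated cells, a smaller share of airway in the piece and less RNA per cell cannot be told apart.

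Regulators of the ciliated fate shared the pattern. Rfx2, a transcription factor of cilium genes, had 11.6, 14.1 and 16.9 CPM in oil vapor, against 18.8, 22.1 and 24.4 CPM in air. The groups did not overlap (log2 value -0.57, SE 0.13, adjusted p = 0.198). Foxj1, the factor that starts the motile cilium program, had 17, 26.2 and 33.1 CPM in oil vapor and 25.0, 39.4 and 47.5 CPM in air (log2 value -0.58, SE 0.21), and 3 oil vapor animals lay below every air animal. Ccno, a cyclin needed to make the many basal bodies of these cells, and Rfx3 had log2 values of -0.67 (SE 0.28) and -0.22 (SE 0.09). All 4 regulators tested had an unadjusted p below 0.05.

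All 6 axonemal dynein genes, which encode the motors, had lower values (median -0.50), 5 with an unadjusted p below 0.05. The intermediate chain Dnai2 had 6.26, 8.59 and 10.9 CPM in oil vapor and 8.03, 13.3 and 14.2 CPM in air, where animal 1 stood low, and the heavy chain Dnah9 stood at -0.52 (SE 0.19). Among 8 genes that dock or assemble dyneins, all were lower (median -0.47). Ccdc151, a docking factor, led them with 1.79, 2.37 and 3.38 CPM in oil vapor and 3.53, 4.28 and 6.56 CPM in air. These groups did not overlap, and its log2 value was -0.91 (SE 0.30, adjusted p = 0.357). In the 3 genes of the repeat ruler and the nexin-dynein links the median was -0.49, with Ccdc40, which sets the repeat along the microtubule, at -0.59 (SE 0.21). Radial spoke and central pair genes, which coordinate the beat, had a median of -0.45 over 6 genes. Of these, Spag17 had 28.4, 37.7 and 49.6 CPM in oil vapor and 50.7, 55.5 and 62.3 CPM in air, again without overlap, and Hydin had 98.7, 143 and 183 CPM in oil vapor and 165, 207 and 237 CPM in air. The 3 tektins, filament proteins of the doublet microtubules, had a median of -0.36. Tppp3 was the member with a value above 0, at 0.04 (SE 0.06). Its product binds microtubules generally.

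Outside the list, Dnajb13, a radial spoke protein, and Tcte1, of the nexin-dynein complex, were among the 12 lower genes with the smallest p. Dnajb13 had 3.80, 5.35 and 7.65 CPM in oil vapor and 8.16, 9.39 and 11.8 CPM in air, and Tcte1 had 3.84, 5.52 and 6.42 CPM in oil vapor and 8.20, 9.30 and 12.9 CPM in air. Neither gene had overlapping groups. Their log2 values were -0.79 (SE 0.18) and -0.91 (SE 0.22).

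Summed over the list, cilia transcripts were lowest in animal 5 (1019 CPM). Without that animal 37 of 38 members were still lower (median -0.38). Of them 13 had an unadjusted p below 0.05, beside 9.84% of all genes. Without animals 5, 7 and 16 the median was -0.43, with 37 lower and 8 at that p, beside 7.02% of all genes. With the liver, heart and erythroid levels as covariates the median was -0.16 and 33 of 38 members were lower. With these covariates 1 member had an unadjusted p below 0.05, beside 7.52% of all genes.

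**Figure D2:**
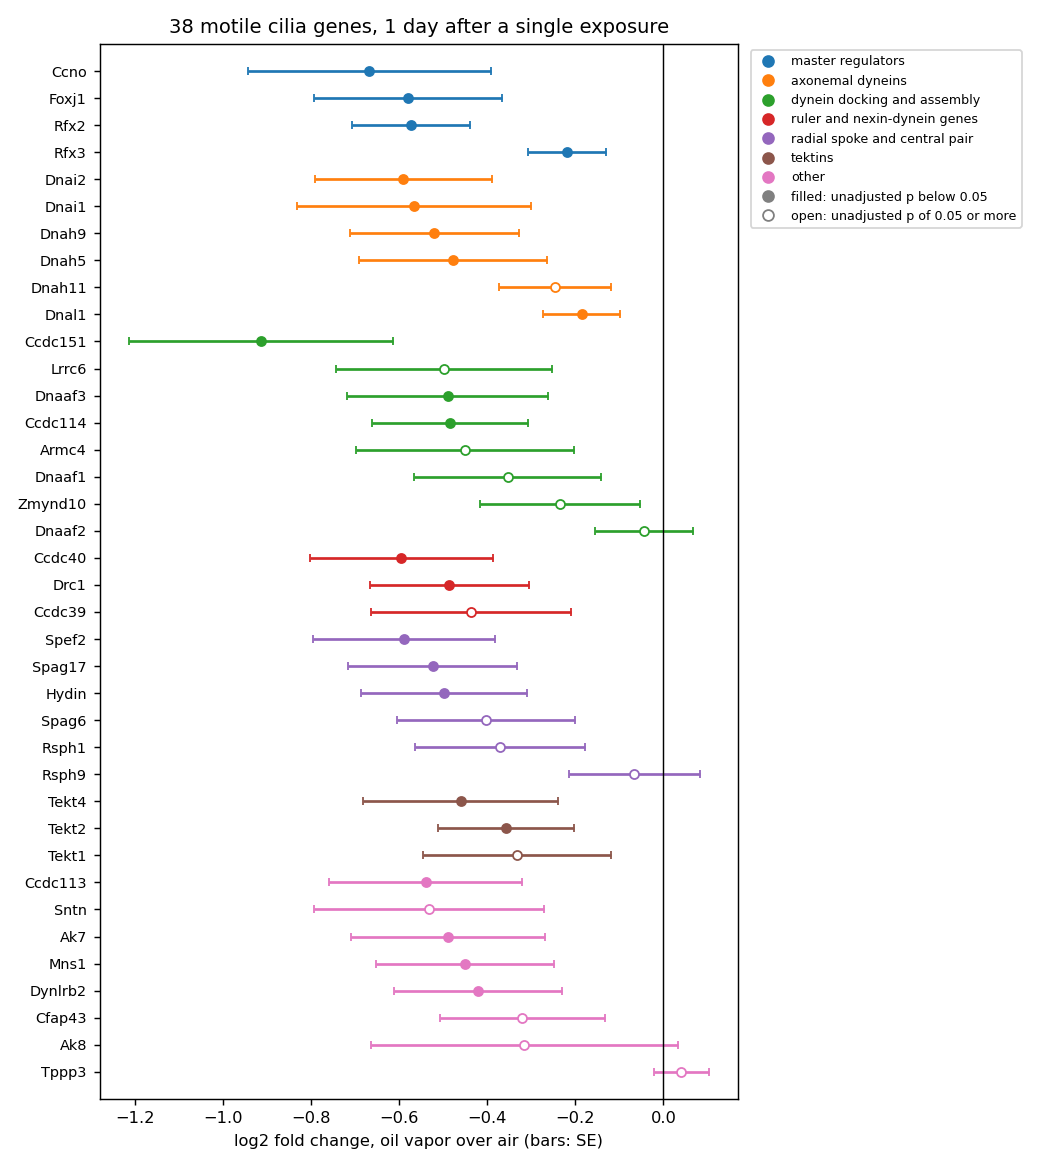
Log2 fold change of oil vapor over air (x axis) for the 38 motile cilia genes tested, grouped by role, with the SE as bars (6 animals per group). Filled points have an unadjusted p below 0.05 (23 genes), and 37 points lie left of 0.

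Rfx2 and its relatives bind a motif called the X-box in front of many cilium genes. Because nearly all members of this list had values of the same sign, the 250 bases before the start of each gene were searched on both strands in the RefSeq promoter table of the assembly GRCr8, which held 32 of the 38 members. The half-site GTTGCC was found in 12 of them (37.5%), against 10.4% of the 10772 tested genes with a window and 9.89% of all 33469 promoters in the table. A fuller form, GTNNCC followed after 3 bases by GNAAC, was found in 7 (21.9%), against 2.1% of tested genes and 1.63% of all promoters. The forms overlap in part, both were chosen after the expression values were known, and a match describes letters in a window and not a bound site. Among genes with values given above, Spag17, Dnah9, Ccdc40 and Dnajb13 had neither form in their windows. Whether a match goes with lower values was not tested. As examples with a match, the windows of Ccdc151 and Hydin are shown with the fuller form in capitals, and those of Rfx2 and Dnai2 with the half-site. They lie at chr8:28810512-28810761 on the minus strand (Ccdc151, listed in RefSeq as Odad3), chr19:55146216-55146465 on the plus strand (Hydin), chr9:1758147-1758396 on the minus strand (Rfx2) and chr10:100258772-100259021 on the plus strand (Dnai2), printed 5′ to 3′ on that strand, and that of Dnai2 reads GGCAAC, the half-site on the opposite strand. The capitals of Hydin read as the fuller form only on the opposite strand, while those of Ccdc151 read so on the printed one.
Ccdc151: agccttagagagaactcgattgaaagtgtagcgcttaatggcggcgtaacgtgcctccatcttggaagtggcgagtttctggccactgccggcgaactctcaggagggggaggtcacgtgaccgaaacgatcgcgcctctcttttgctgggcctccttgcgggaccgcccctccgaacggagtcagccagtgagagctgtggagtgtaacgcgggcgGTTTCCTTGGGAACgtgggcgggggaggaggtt
Hydin: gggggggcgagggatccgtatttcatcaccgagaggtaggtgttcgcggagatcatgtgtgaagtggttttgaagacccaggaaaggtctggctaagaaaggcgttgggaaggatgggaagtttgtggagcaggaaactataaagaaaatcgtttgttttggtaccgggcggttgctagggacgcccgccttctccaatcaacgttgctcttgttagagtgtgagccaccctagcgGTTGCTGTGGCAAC
Rfx2: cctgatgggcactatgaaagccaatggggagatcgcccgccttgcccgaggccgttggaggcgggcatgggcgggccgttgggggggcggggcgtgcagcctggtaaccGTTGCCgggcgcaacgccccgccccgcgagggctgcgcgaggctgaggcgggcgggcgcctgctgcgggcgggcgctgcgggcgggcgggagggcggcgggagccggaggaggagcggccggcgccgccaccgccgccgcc
Dnai2: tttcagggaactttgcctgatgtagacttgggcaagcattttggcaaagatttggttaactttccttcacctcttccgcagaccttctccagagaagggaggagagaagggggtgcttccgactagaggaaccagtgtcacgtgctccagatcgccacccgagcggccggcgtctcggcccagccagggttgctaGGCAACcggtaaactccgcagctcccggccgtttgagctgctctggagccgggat

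Mucus and secretory genes of the airways had lower values too, with a wide spread among air animals. Of 11 mucin and goblet genes tested, from a list of 17, 8 were lower (median -0.26) and 4 had an unadjusted p below 0.05 (36.4%). Muc5b, the main gel-forming mucin of resting airways, had 5.37, 12.8 and 25.9 CPM in oil vapor and 21.0, 62.8 and 165 CPM in air, and 5 of 6 oil vapor animals lay below every air animal. Its log2 value was -2.26 (SE 0.57, adjusted p = 0.235). Bpifb1, a secreted antimicrobial protein of airway glands and goblet cells, had 5.37, 9.36 and 16.1 CPM in oil vapor and 10.5, 46.1 and 75.2 CPM in air. Agr2, which folds mucins, and Clca1, a goblet cell product, had log2 values of -0.91 (SE 0.30) and -1.73 (SE 0.63). The transmembrane mucin Muc1 and the antibody transporter Pigr stood at -0.04 (SE 0.11) and -0.04 (SE 0.09). Muc5ac, the mucin of inflamed airways, did not pass the filter on low counts, with at most 0.741 CPM in any oil vapor animal and 0.403 CPM in any air animal.

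Among 11 club cell genes tested, of 14 on the list, 8 were lower (median -0.37) and 5 had an unadjusted p below 0.05 (45.5%). Scgb1a1, the abundant secretoglobin of club cells, had 1037, 1593 and 2050 CPM in oil vapor and 1622, 2072 and 2619 CPM in air (log2 value -0.37, SE 0.17). Scgb3a1, a secretoglobin of larger airways, had 1.79, 4.62 and 17 CPM in oil vapor and 11.1, 36.3 and 191 CPM in air, where animal 9 held the 191. Its log2 value was -2.90 (SE 0.83, adjusted p = 0.278). The cytochrome P450 gene Cyp2f4, which metabolizes inhaled aromatics in club cells, stood at -0.79 (SE 0.37). In summed CPM, club cell genes lay between 2144 and 3286 in oil vapor and between 3031 and 3946 in air, with animal 5 lowest. Without animal 5 the median was -0.28 and 2 genes, both lower, had an unadjusted p below 0.05, beside 9.84% of all genes. With liver, heart and erythroid levels as covariates 7 of 11 were lower (median -0.11). With these covariates 1 lower and 1 higher gene had that p, beside 7.52% of all genes. Of 8 airway basal cell genes 2 passed the filter, Krt15 at -0.67 (SE 0.41) and Ngfr at -0.25 (SE 0.37), and of 10 neuroendocrine genes 1 did, Ddc at 0.03 (SE 0.10).

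**Figure D3:**
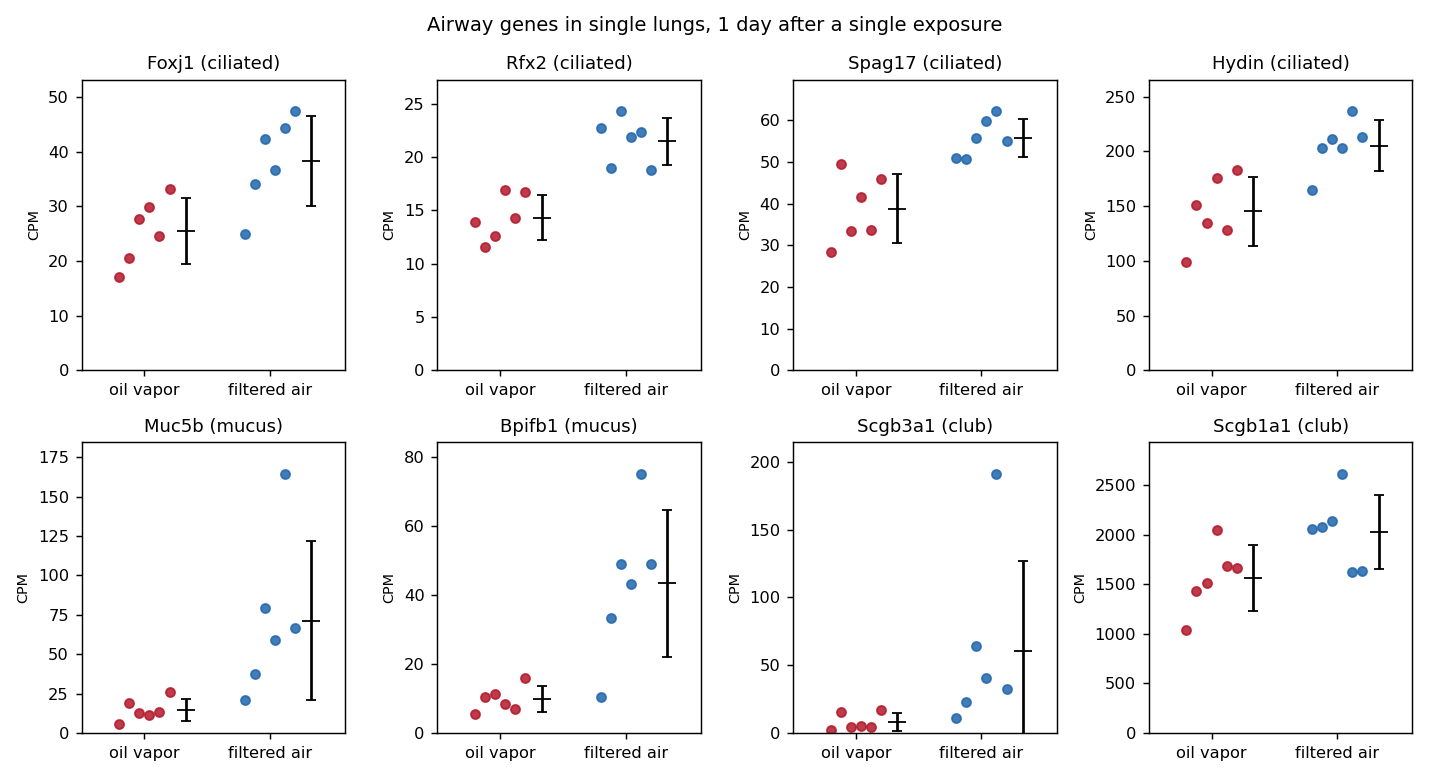
CPM (y axis) of 4 motile cilia genes, 2 mucus genes and 2 club cell genes in each lung, oil vapor left and filtered air right. Points are animals and bars the mean with its SD (n = 6). For Rfx2 and Spag17 the groups do not overlap, while Muc5b, Bpifb1 and Scgb3a1 spread more widely in air.

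The other lower genes with the smallest p came from several cell functions. Groups did not overlap, with oil vapor lower, in 7 of the 12, beside 0.432% of all genes. The 12 were chosen by p in these same libraries, so that count follows in part from the choice. Log2 values of the 12 lay between -1.22 and -0.34 with adjusted p of 0.124 to 0.212. Rnf208, a RING finger gene, had 0.895, 1.36 and 1.83 CPM in oil vapor and 2.05, 3.03 and 4.83 CPM in air, so that oil vapor levels were near the floor of 3 counts. Rph3al, a Rab effector in regulated exocytosis, had 15.0, 17 and 19.5 CPM in oil vapor and 19.2, 26.0 and 28.2 CPM in air, overlapping at the edge. Its log2 value was -0.58 (SE 0.11), and it was the gene called by limma-voom. Enpp3, an enzyme that cleaves extracellular nucleotides, had 25.9, 35.9 and 44.5 CPM in oil vapor and 48.9, 53.9 and 59.4 CPM in air. These groups stood apart, at -0.62 (SE 0.12, adjusted p = 0.144). Lbp, which presents bacterial lipopolysaccharide to its receptor, had 7.03, 8.60 and 16.8 CPM in oil vapor, with animal 16 highest, and 12.7, 17.6 and 27 CPM in air. Tspan1, a tetraspanin, had 9.59, 14.7 and 22.6 CPM in oil vapor and 25.3, 30.1 and 34.8 CPM in air. Fam13a, Htra3 (a secreted protease), Sec24b (a cargo selector of COPII vesicles) and Parm1 (a mucin-like membrane protein) stood at -0.48 (SE 0.10), -0.49 (SE 0.10), -0.34 (SE 0.08) and -0.93 (SE 0.21). DESeq2 also called Sfrp2, a secreted Wnt modulator, at 9.28, 12.6 and 15.8 CPM in oil vapor against 17.4, 29.9 and 40.2 CPM in air.

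Among genes with higher values, the 12 with the smallest p had log2 values between 0.17 and 0.58 with adjusted p of 0.167 to 0.235. Groups did not overlap in 3 of them, beside 0.229% of all genes with oil vapor higher. These 12 were also chosen by p in the same libraries. Dpysl3, a cytoskeletal protein, had 28.9, 39.8 and 44.9 CPM in oil vapor and 22.1, 27.6 and 30.6 CPM in air (log2 value 0.51, SE 0.11). Myl12a, a light chain of nonmuscle myosin, had 341, 349 and 359 CPM in oil vapor and 294, 307 and 324 CPM in air, with no overlap, at 0.17 (SE 0.04). Its near-identical neighbour in sequence, Myl12b, went the other way, with 60.0, 66.3 and 72.9 CPM in oil vapor and 60.6, 117 and 154 CPM in air, and reads of such copies can be split between them. Nfe2l1, a transcription factor of proteasome genes, and Flot1, a scaffold of membrane microdomains, stood at 0.23 (SE 0.05) and 0.34 (SE 0.08). Rps2, a ribosomal protein whose retrocopies could take up reads, stood at 0.49 (SE 0.12). Ppp2r1b, a scaffold of protein phosphatase 2A, and Slc25a15, the mitochondrial ornithine carrier, had groups without overlap at 0.23 (SE 0.05) and 0.35 (SE 0.09). Aldh7a1, Ap2m1, Ccnyl1, Marveld3 and Lmo2 completed the set, between 0.22 and 0.58.

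Pathways that sense oxidants and hydrocarbons showed little difference. Of 23 NRF2 target genes 17 were higher, with a median log2 value of 0.06, and 1 had an unadjusted p below 0.05 (4.35%). Without animal 5, 13 were higher and 10 lower (median 0.03), and without animals 5, 7 and 16, 10 were higher and 13 lower (median -0.0090). The gene at that p with all animals was Srxn1, which repairs oxidized peroxiredoxins, with 2.47, 4.22 and 7.38 CPM in oil vapor and 1.5, 2.14 and 4.91 CPM in air (log2 value 0.74, SE 0.32, adjusted p = 0.459). Nqo1, the quinone reductase, had 31.1, 37.2 and 38.9 CPM in oil vapor and 29.7, 34.3 and 38.6 CPM in air, and Hmox1, which degrades heme, stood at 0.12 (SE 0.12). None of 7 aryl hydrocarbon receptor genes reached an unadjusted p below 0.05 (median 0.01). Cyp1a1, the classical target, had 16.7, 25.6 and 36.9 CPM in oil vapor and 11.1, 24.3 and 49.9 CPM in air (log2 value -0.08, SE 0.30).

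Enzymes of the first phase of foreign chemical metabolism were lower in 19 of 25 genes (median -0.09), 6 of them with an unadjusted p below 0.05 (24%). They included the soluble epoxide hydrolase Ephx2 at -0.48 (SE 0.17), Cyp2a3 at -1.31 (SE 0.56) and the P450 reductase Por at -0.19 (SE 0.08). Without animal 5, 18 of 25 were lower (median -0.10), 2 of them at that p, beside 9.84% of all genes. With liver, heart and erythroid levels as covariates 15 of 25 were lower (median -0.07). With these covariates 3 lower and 2 higher genes had that p, beside 7.52% of all genes. Cyp2f4, Cyp2b1, Cyp4b1, Aldh1a1 and Aldh3a1 belong both to this list of first-phase enzymes and to the club cell list, so the lists are not independent. The conjugating enzymes of the second phase had a median of -0.01 over 18 genes, with 1 at an unadjusted p below 0.05, Gstm2 at -0.15 (SE 0.07). Heat shock and metallothionein genes (11 of 12 lower, median -0.12), unfolded protein response genes (13 of 19 higher, median 0.03) and p53 targets (8 of 13 higher, median 0.02) had no member with an unadjusted p below 0.05. The smallest p in each belonged to Hspa8 at -0.24 (SE 0.16), Herpud1 at -0.15 (SE 0.08) and Aen at 0.15 (SE 0.09).

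Genes that answer to stimuli within a short time, to glucocorticoids or to the time of day had lower values in part. Of 21 immediate early genes 16 were lower (median -0.26), 4 with an unadjusted p below 0.05 (19%). Fosb had 2.49, 3.69 and 6.04 CPM in oil vapor and 2.66, 8.46 and 35.2 CPM in air, and 1 oil vapor animal lay below every air animal. Zfp36, which destabilizes cytokine mRNA, and Egr1 stood at -0.60 (SE 0.23) and -1.07 (SE 0.46). Without animals 5, 7 and 16, 17 of the 21 were lower, 1 of them at that p, beside 7.02% of all genes. With liver, heart and erythroid levels as covariates 18 were lower, 12 of them at that p, beside 7.52% of all genes. Of 15 glucocorticoid-responsive genes 14 were lower (median -0.22), 3 with an unadjusted p below 0.05 (20%). Zbtb16 had 11.9, 19.1 and 42.1 CPM in oil vapor and 13.8, 48.7 and 144 CPM in air, and Dusp1, a phosphatase of stress kinases that is also on the immediate early list, stood at -0.49 (SE 0.20). Of 18 clock genes 12 were lower (median -0.06), 4 with an unadjusted p below 0.05 (22.2%). Per1, a clock component that glucocorticoids also induce and that stands on both lists, had 35.9, 54.0 and 82.7 CPM in oil vapor and 32.6, 121 and 168 CPM in air (log2 value -0.95, SE 0.30, adjusted p = 0.348). Usp2, Bhlhe40 and Npas2 stood at -0.49 (SE 0.19), -0.30 (SE 0.12) and -0.23 (SE 0.10), while Arntl, the positive limb of the clock, stood at 0.04 (SE 0.07). The time of day at which lungs were taken is not given in the sources used here.

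Interferon response genes had higher values in 27 of 30 members (median 0.19), 5 with an unadjusted p below 0.05 (16.7%). Isg15, a ubiquitin-like protein, had 19.7, 29.2 and 36.3 CPM in oil vapor and 16.2, 19.8 and 25.0 CPM in air (log2 value 0.45, SE 0.17, adjusted p = 0.402). Rtp4, Ifi27, Irf9 (a subunit of the interferon-activated factor) and Ifi35 stood at 0.41 (SE 0.15), 0.22 (SE 0.08), 0.21 (SE 0.08) and 0.22 (SE 0.09). In summed CPM, animals 5 and 6 stood highest (4545 and 3008), while the other oil vapor animals (2024 to 2273) lay within or below the air range (2076 to 2648). Without animal 5, 24 of 30 members were higher, with a median of 0.10. Natural killer genes were higher in 13 of 14 members (median 0.16). At an unadjusted p below 0.05 were 2, both higher (14.3%, beside 10.1% of all genes and 4.64% higher). These were the chemokine Ccl5 at 0.43 (SE 0.17) and the transcription factor Tbx21 at 0.41 (SE 0.17). Without animal 5 that median was 0.03, with 9 of 14 higher.

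Inflammatory cells and mediators differed little. No T cell gene (17 tested, median 0.04), B or plasma cell gene (11 tested, median -0.02) or neutrophil gene (10 tested, median 0.09) had an unadjusted p below 0.05. Without animal 5, 13 of the 17 T cell genes were lower (median -0.13), 1 of them at that p, beside 9.84% of all genes. Of the 10 neutrophil genes 6 were lower without that animal (median -0.03). With a surrogate variable all 10 neutrophil genes were higher (median 0.17), 3 of them at that p, beside 10.6% of all genes. The neutrophil alarmin S100a8 had 14.1, 21.8 and 60.0 CPM in oil vapor and 15.1, 18.5 and 42.2 CPM in air, with animals 5 and 9 highest in their groups. Of 22 cytokine, chemokine and NF-kB response genes tested, of 32 on the list, 13 were higher (median 0.01). At an unadjusted p below 0.05 were 2 (9.09%, beside 10.1% of all genes). These were Tnfaip3, an inhibitor of NF-kB, at 0.26 (SE 0.10), and the chemokine Ccl4 at 0.65 (SE 0.26). Il1b stood at 0.13 (SE 0.26) and Ccl2 at -0.17 (SE 0.36). Macrophage and lipid handling genes were higher in 16 of 23 members (median 0.10), with Siglec1, a sialic acid receptor of macrophages, at 0.52 (SE 0.18) and the lipid droplet coat gene Plin2 at 0.14 (SE 0.06), while the lipase Lpl stood at -0.37 (SE 0.17). Marco, a scavenger receptor of alveolar macrophages, was at 0 in 2 oil vapor and 4 air libraries and at most 0.447 CPM in the rest. Mast cell, basophil and eosinophil genes had a median of 0.13 over 9 genes, or -0.12 without oil vapor animal 7, with Gata2 at -0.26 (SE 0.09). Genes of antigen presentation by MHC class II had a median of -0.00 over 9 genes, with the regulator Ciita at -0.28 (SE 0.12) and the invariant chain Cd74 at 0.07 (SE 0.06).

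Complement and acute phase genes were higher in 19 of 29 members (median 0.13), 7 higher and 2 lower with an unadjusted p below 0.05 (31%). The 7 were of different kinds. The complement genes C1qa, C1qc and Cfb stood at 0.35 (SE 0.12), 0.26 (SE 0.12) and 0.25 (SE 0.08). The fibrinogen genes Fgb and Fga, the heme binder Hpx and Itih4 are made by liver, and all 4 were highest in animals 5, 7 and 16, the libraries with the most liver transcripts. Fgb had 0.741, 7.43 and 14.1 CPM in oil vapor and 0, 0.532 and 3.23 CPM in air. The 2 lower genes were Lbp and the C1 inhibitor Serping1, at -0.66 (SE 0.17), which had 54.6, 79.6 and 96.9 CPM in oil vapor and 75.4, 136 and 177 CPM in air, with air animals 9 and 10 inside the oil vapor range.

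Genes of the alveolar compartment had small median differences. Type 2 cell genes had a median of 0.02 over 17 genes, with Fabp5, a fatty acid binding protein, at 0.63 (SE 0.18) and Rab27a, which docks secretory vesicles, at -0.55 (SE 0.15). Fabp5 had 24.4, 41.2 and 47.7 CPM in oil vapor and 19.5, 24.5 and 31.2 CPM in air. Type 1 cell genes had a median of -0.03 over 15 genes, with the tight junction gene Cldn18 at -0.38 (SE 0.12) and the chloride channel gene Clic5 at -0.18 (SE 0.08). Regulated secretion genes, which include Rph3al and Rab27a, had a median of 0.04 over 25 genes. At an unadjusted p below 0.05 were 3, all lower (12%, beside 10.1% of all genes and 5.45% lower). The third of these, besides Rph3al and Rab27a, was Rab3a at -0.48 (SE 0.20). Ion and water transport genes had a median of -0.08 over 15 genes, with the water channel Aqp4 at -0.54 (SE 0.23).

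Lipid genes showed small values. Of 23 cholesterol synthesis genes 17 were lower (median -0.14), with Hsd17b7 at -0.41 (SE 0.13) and Sqle, a rate-controlling oxidase, at -0.25 (SE 0.11), the 2 with an unadjusted p below 0.05 (8.7%). Fatty acid synthesis genes had a median of -0.02 over 14 genes, with the carboxylase Acacb at -0.15 (SE 0.07). Fatty acid oxidation and PPAR target genes had a median of 0.02 over 26 genes, with Ucp3 and Plin2 the 2 higher at an unadjusted p below 0.05, Ucp3 at 0.50 (SE 0.22).

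Collagen and matrix genes differed in both directions: 12 of 23 were higher (median 0.01), and 3 higher and 5 lower had an unadjusted p below 0.05 (34.8%). Col1a1, the fibrillar collagen of fibroblasts, had 238, 344 and 384 CPM in oil vapor and 384, 454 and 711 CPM in air, without overlap, at -0.61 (SE 0.16, adjusted p = 0.235). The proteoglycans Lum and Dcn, which bind collagen fibrils, stood at -0.40 (SE 0.11) and -0.54 (SE 0.15), and the basement membrane collagen gene Col18a1 at -0.24 (SE 0.09). Col4a2, another basement membrane collagen, and Mmp12, the macrophage elastase, stood at 0.23 (SE 0.09) and 0.59 (SE 0.26). Endothelial genes (18 tested, median -0.01) had no member with an unadjusted p below 0.05. Smooth muscle genes had a median of -0.05 over 12 genes, with Synpo2 at -0.30 (SE 0.11). Mesothelial genes were higher in 8 of 8 members (median 0.24), with Krt19 at 0.20 (SE 0.07), although air animal 1 had the highest sum of all 12 libraries (532 CPM). With liver, heart and erythroid levels as covariates the mesothelial median was -0.12. Cell division genes were higher in 21 of 24 members (median 0.11), none with an unadjusted p below 0.05, and Mki67 stood at 0.16 (SE 0.11). Ribosomal protein genes of the cytosol were higher in 22 of 23 members (median 0.07), and without animal 5 in 10 of 23 (median -0.01). Nuclear genes of complex I had a median of 0.02 over 21 genes, with Ndufa9 at -0.36 (SE 0.10).

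Transcripts of other organs and of blood spread widely among animals. All 12 liver genes tested were higher (median 2.05), 8 with an unadjusted p below 0.05 (66.7%). Alb, serum albumin, had 11.9, 109 and 287 CPM in oil vapor and 6.57, 19.9 and 40.9 CPM in air, with animals 5, 7 and 16 above the others (log2 value 2.58, SE 0.77, adjusted p = 0.316). Without those 3 animals 9 of 12 liver genes were higher, with a median of 0.55 and 0 at an unadjusted p below 0.05. Those animals were chosen by their liver sums, so a smaller liver difference without them follows from the choice. All 13 heart genes were lower (median -1.12), with the atrial light chain Myl7 at -1.77 (SE 0.70), 1 of them with an unadjusted p below 0.05. Without animal 5 the median was -1.41 and 7 of 13 were lower at that p, beside 9.84% of all genes. With liver, heart and erythroid levels as covariates, the sum over these heart genes included, the median was 0.23. All 12 erythroid genes and 9 of 10 platelet genes were higher (medians 0.42 and 0.39), none with an unadjusted p below 0.05. Without animal 5 these medians were -1.06 and -0.57. At that p, 6 of 12 erythroid and 4 of 10 platelet genes were then lower, beside 9.84% of all genes. Animal 5 had the highest oil vapor sum of heart, erythroid and platelet genes. Lower medians of these lists without it therefore follow from leaving out that animal, while all air animals were kept.

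**Figure D4:**
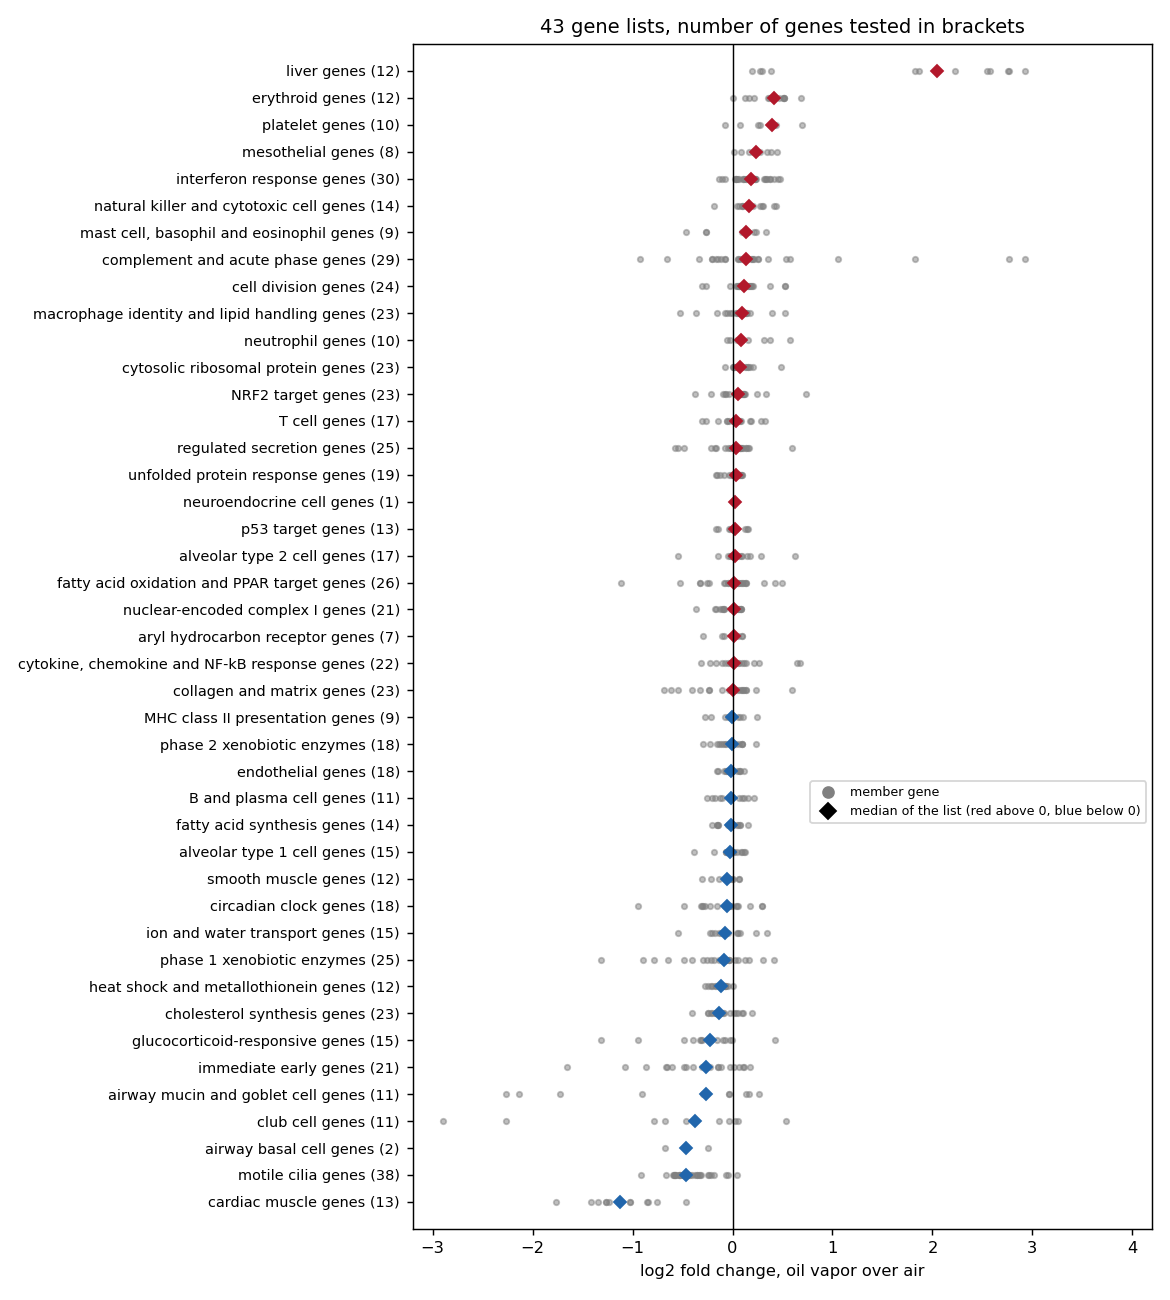
Log2 fold change of oil vapor over air (x axis) for the members of 43 gene lists (grey points, number of genes tested in brackets), with the median of each list as a diamond, red above 0 and blue below 0. Motile cilia genes (median -0.47) cluster left of 0, and the liver list (median 2.05) lies far to the right.

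Whether the oil vapor effect at 1 day differed from that at 28 days was tested as an interaction within the single-exposure libraries. No gene passed (0%, smallest adjusted p = 0.0572), 1160 genes (7.83%) had an unadjusted p below 0.05 (3.99% with the higher effect at 1 day, 3.84% with the lower), and DESeq2 called 21. The genes with the smallest p were liver genes. Ttr, transthyretin, had log2 values of 2.75 (SE 0.83) at 1 day and -5.31 (SE 1.13) at 28 days, a difference of 8.06 (SE 1.41). In the air group at 28 days 1 animal reached 29.2 CPM of Ttr, beside a median of 2.59 CPM. The same 1 day libraries enter this difference and the values above. Motile cilia genes had a median of 0.06 at 28 days, beside -0.47 at 1 day, and 9 of 38 were lower at 28 days. The difference had an unadjusted p below 0.05 in 14 of 38 members, none after adjustment. Muc5b stood at -2.26 (SE 0.57) at 1 day and 1.31 (SE 0.56) at 28 days, a difference of -3.57 (SE 0.80, adjusted p = 0.155). Bpifa1, an antimicrobial protein of the upper airways, stood at -2.26 (SE 0.86) and 3.07 (SE 0.98), a difference of -5.33 (SE 1.30, adjusted p = 0.254). Of the 24 genes with the smallest p at 1 day, 15 had an unadjusted p below 0.05 for the difference and 0 passed. These 24 were chosen by the 1 day contrast, which is part of this difference, so the count of 15 follows in part from the choice.

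Between the single exposure and the 16 exposures, both at 1 day, the oil vapor effect differed for 7 genes (0.0457% of 15322), tested as an interaction over all 48 libraries. In 6 of them (0.0392%) the effect of the single exposure was the lower one, and in 1 (0.00653%) the higher. Lbp had 7.01, 8.55 and 16.6 CPM in oil vapor and 12.6, 17.5 and 26.8 CPM in air after the single exposure, on the scale of all 48 libraries. After 16 exposures it had 9.91, 12.6 and 15.5 CPM in oil vapor and 5.45, 9.46 and 11.6 CPM in air. Oil vapor animals thus lay mostly below air animals on the first schedule and mostly above them on the second. Its log2 value stood at -0.92 (SE 0.21) after the single exposure and 0.51 (SE 0.22) after 16, a difference of -1.43 (SE 0.30, adjusted p = 0.0393). Rab27a stood at -0.55 (SE 0.16) and 0.53 (SE 0.16), a difference of -1.08 (SE 0.22, adjusted p = 0.0393). The others were Myl12b at -1.29 (SE 0.27), Wbp2 at -1.01 (SE 0.21), Cldnd1 at -0.89 (SE 0.17) and LOC306766 at -0.64 (SE 0.12), all as differences. Zdhhc17, a palmitoyltransferase,, with the higher effect after the single exposure, stood at 0.21 (SE 0.05) beside -0.19 (SE 0.05), a difference of 0.40 (SE 0.08).

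Air animals 1 to 4 of the single exposure stood above air animals 9 and 10 in 5 of these 7 genes. The same split was not counted over all genes. The 7 genes were also chosen by a test that the levels of these air animals enter, so the count is a description only. For Myl12b they had 114 to 153 CPM, against 66.5 and 60.4 CPM in animals 9 and 10, while the oil vapor animals had 59.6 to 72.5 CPM. No gene passed without any one of single-exposure air animals 1, 2 and 4, single-exposure oil vapor animal 6, 16-exposure air animals 37 and 38, or 16-exposure oil vapor animal 47. Over all animals left out in turn the count ran from 0 to 25. The most Alas2 counts, an erythroid enzyme, among these 24 libraries were 30019 in animal 43 of the 16-exposure oil vapor group, a library of 1.54 M, and 27026 in animal 5. Without animal 43 the count was 25. Motile cilia genes had a median of -0.05 after 16 exposures, beside -0.47 after the single one. Of 38 members, 10 had an unadjusted p below 0.05 for the difference, beside 9.74% of all genes (3.94% higher and 5.8% lower), and none passed.

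**Figure D5:**
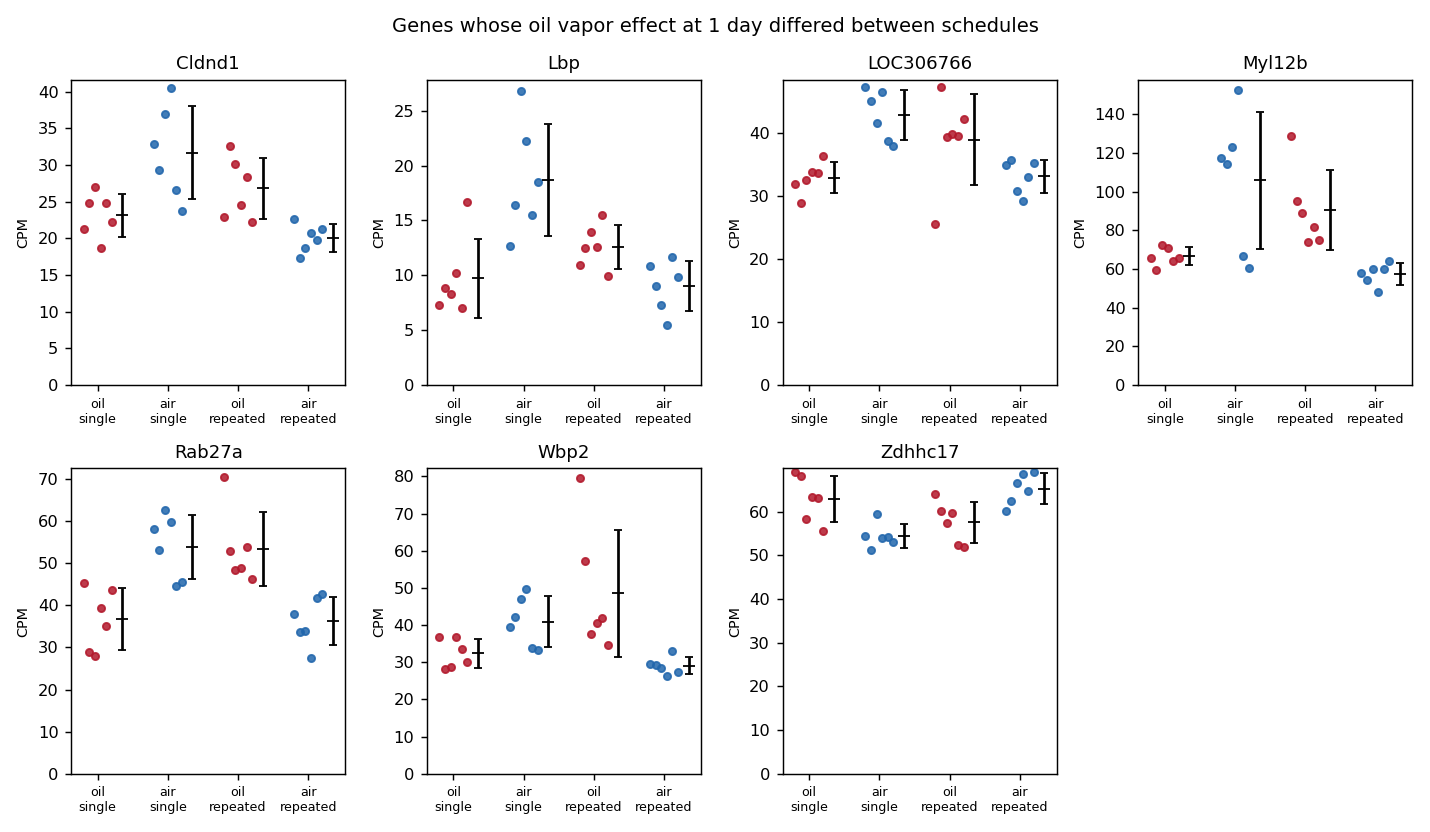
CPM (y axis) of the 7 genes whose oil vapor effect at 1 day differed between schedules, in oil vapor and air lungs after the single exposure and after 16 exposures. Points are animals and bars the mean with its SD (n = 6). For Myl12b, air animals of the single exposure split into 4 at 114 CPM or more and 2 at 66.5 CPM or less.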

How the data were processed

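RNA from 1 piece of lung per animal was sequenced in 48 libraries, of which 12 made the comparison. The deposited values were raw read counts per gene in 2 tables, 1 for each exposure schedule. The submitters' processing notes name the build Rnor_6.0 and the tools HISAT2 2.1.0, HTSeq 0.6.1, SAMtools 1.8, Trimmomatic 0.35 and bcl2fastq 2.19. Which annotation was counted, and with which strand option, is not given in the sources used here. Overlapping, antisense and near-identical genes are therefore uncertain. Per the labels' protocols, a stranded total RNA kit with rRNA depletion and PCR was used. No molecular identifiers are named, so floors cover counting error only.

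Groups came from the labels. The table of the single exposure held 30045 genes. Genes were filtered with filterByExpr, scaled by TMM and fitted with edgeR 4.0.16 (quasi-likelihood, R 4.3.3) over its 24 libraries, with Benjamini-Hochberg adjustment at 0.05. The difference between schedules was fitted over all 48 libraries. The SE was taken from the log2 fold change and its F statistic and is approximate. The tests were checked on simulated data. Alternatives were DESeq2 1.42.0, limma-voom 3.58.1 with sample weights, 1 surrogate variable (sva 3.50.0), other scaling and filters, a minimum of 1.5-fold, only the 12 or all 48 libraries, marker sums as covariates, and leaving out libraries. Leaving out each animal for the library totals was added after seeing the data. Replicates were distinct libraries: a chi-square per gene ran from 3.03 to 21.3 over 30 pairs within groups.

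The members and the 43 gene lists were chosen with earlier results of these data known. Named were the 12 genes of smallest p in each direction with a mean of at least 1 CPM, 2 to 4 leading members of each list, the leading genes of each difference, and genes called by DESeq2 or limma-voom. Other genes named were chosen after their values were seen, and some members of the lists are not reported here. Promoters came from RefSeq for GRCr8, a build other than that of the counts, and no coordinate was converted.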

Additional observations from a re-analysis of the deposited data

Results flagged for a closer look

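In groups of 6, an animal was singled out where its gap to the nearest other exceeded Dixon's 95% limit. Of 326 groups looked at, 30 were singled out, where chance gives about 1 in 20, and 10 of the 30 concerned oil vapor animal 5. Causes were not tested.

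In summed CPM, oil vapor animal 5 was highest for erythroid (15317), platelet (939), heart (567), T cell (393), natural killer (307), ion and water transport (3348), NRF2 target (3661) and cytosolic ribosomal protein genes (7015), and lowest for mucin and goblet genes (654). It was also highest for Il1b, at 38.7 CPM. Oil vapor animal 16 was highest in the sum of type 2 cell genes (19056) and in Lbp (16.8 CPM) and Bpifa1 (10.2 CPM). Oil vapor animal 6 was highest in Irf9, at 116 CPM.

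Among air animals, animal 9 was highest for Scgb3a1 (191 CPM), Bpifa1 (49.4 CPM) and S100a8 (42.2 CPM), and lowest for Gata2 (84 CPM). It also had the highest air sums of neutrophil (392 CPM), T cell (295 CPM) and NRF2 target genes (2640 CPM). Air animal 1 was lowest for Dnai2 (8.03 CPM), Krt15 (0.892 CPM), Herpud1 (56.9 CPM) and Cyp2a3 (6.02 CPM). It was highest for Clca1 (24.3 CPM) and the sum of mast cell, basophil and eosinophil genes (579 CPM). Air animal 4 was highest for Fgb (3.23 CPM) and Fga (2.87 CPM), and air animal 2 for Marveld3 (7.49 CPM).

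The oil vapor effect at 1 day differed between the single and the 16 exposures, by an interaction term in edgeR, for Cldnd1 (-0.89), Lbp (-1.43), LOC306766 (-0.64), Myl12b (-1.29), Rab27a (-1.08), Wbp2 (-1.01) and Zdhhc17 (0.40), as differences on the log2 scale. The 2 schedules stand in separate deposited tables, so schedule and table cannot be told apart.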

How the results depend on the processing

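Between oil vapor and air at 1 day, the count of genes that passed was 0 by edgeR, 19 by DESeq2 (6 higher, 13 lower), 1 by limma-voom (lower) and 1 with a surrogate variable (higher). It ran from 0 to 3 over the animals left out in turn, all lower: 3 without oil vapor animal 16 and 1 without air animal 1. Genes whose groups did not overlap numbered 64 lower and 34 higher. With library totals alone the higher ones numbered 22. With an animal left out there were 76 to 185 lower and 55 to 92 higher. On the same CPM values, leaving out an animal can only keep or raise these numbers. For the difference from 28 days, 11 genes passed with no filter (11 higher) and 21 by DESeq2 (15 higher, 6 lower). With an animal left out 0 to 10 passed (0 to 10 higher, 0 to 1 lower). For the difference between schedules, 61 passed by DESeq2 (15 higher, 46 lower), 34 by limma-voom (6 higher, 28 lower), 27 with a surrogate variable (26 lower) and 23 with covariates (22 lower). With an animal left out 0 to 25 passed (0 to 2 higher, 0 to 23 lower). The library total difference of 0.488 M ran from 0.146 to 0.775 M. These causes were not tested.

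Single genes and list medians changed sign under some alternatives. List medians within 0.1 of 0 that did so included T cell (-0.13 to 0.10), neutrophil (-0.10 to 0.24), aryl hydrocarbon receptor (-0.13 to 0.09), NRF2 (-0.0090 to 0.09), type 2 cell (-0.02 to 0.04), regulated secretion (-0.03 to 0.06), fatty acid oxidation (-0.05 to 0.07) and ribosomal protein genes (-0.02 to 0.11). Other values that changed sign follow. With liver, heart and erythroid covariates they included Des 0.011, Cyp1a1 0.073, Sftpc -0.032 and Il1b -0.10, and the medians of mast cell (-0.022), mesothelial (-0.12), cardiac (0.23), erythroid (-0.59) and platelet genes (-0.30). The heart and erythroid covariates were sums over these same cardiac and erythroid lists, so changes in those medians follow in part from the model. With limma-voom the values that changed sign included Ccl2 0.051, erythroid -0.63 and platelet -0.21. With a surrogate variable they included Sftpc -1.25e-05 and Ager -0.0063. Without oil vapor animals 5, 7 and 16 they included Mmp8 -0.090, S100a8 -0.32, Gp6 -0.31, Sftpc -0.026, Il1b -0.11, erythroid -0.88 and platelet -0.65. With an animal left out in turn, Gp6 ran from -0.35 to 1.09, Il1b from -0.11 to 0.25, erythroid genes from -1.06 to 0.81 and platelet genes from -0.57 to 0.65. In these 4 the low end was without oil vapor animal 5. Mast cell genes ran from -0.12 (without oil vapor animal 7) to 0.17, and Ccl2 from -0.33 to 0.075 (without air animal 1). Cyp1a1 ran from -0.25 to 0.18, above 0 without air animal 4 or oil vapor animal 13, and Arntl from -0.021 (without air animal 9) to 0.086. Ddc ran from -0.037 to 0.058, below 0 without air animals 1 or 4 or oil vapor animal 13. Sftpc ran from -0.038 to 0.025, Sftpb from -0.049 to 0.010 and Ager from -0.018 to 0.034.

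The median of motile cilia genes stayed between -0.53 and -0.16 over the alternatives. No paired analysis was possible because the animal numbers are not shared between groups. Libraries held 4.01 to 7.16 M counts, so that 3 counts stand for 0.415 to 0.741 CPM.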
